A study of Mus musculus with 8 samples.

Results

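The genes described here are 10 enzymes and carriers of ceramide, the main barrier lipid of skin, taken as every probe set that the platform annotation assigns to Sptlc1, Sptlc2, Degs1, Degs2, Elovl4, Ugcg, Abca12, Smpd1, Smpd3 or Asah1. They had 23 probe sets of the 45101 in the table, and the 10 genes stood among 18194 gene symbols. Ceramides fill the spaces between the dead cells of the outermost epidermis and, with cholesterol and fatty acids, keep water in and irritants out. They are made from serine and palmitoyl-CoA, carry very long acyl chains in the epidermis, are stored as glucosylceramides and sphingomyelin in lamellar granules, and are released outside the cell by hydrolysis. A shortage of long-chain ceramides is a known feature of skin with atopic dermatitis.

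RNA of back skin from Balb/c mice was hybridised to 8 Affymetrix arrays, 1 per sample, and the values are log2 signals per probe set. The DNCB+HY209 group (n = 3) received the contact sensitizer 1-chloro-2,4-dinitrobenzene (DNCB) for 15 days and a PEG gel with 5% HY209, which acts on the bile acid receptor GPCR19, for the last 7 days. The DNCB group (n = 3) received DNCB for 15 days and vehicle in place of the HY209 gel. The sham group (n = 2) had no DNCB and no HY209 by its titles and source names, although DNCB treatment is written in its protocol fields, and this doubt bears on every comparison against sham. Ages and sexes were not given, and no label ties the arrays to separate mice, so each p-value reflects only how far these samples differed, which may be technical. Whole skin is a mixture, in which fewer cells of a type and less RNA per cell cannot be told apart.

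The arrays differed in ways that bear on these genes. The mean log2 signal of 7 bacterial spike-in probe sets was 10.89, 9.97 and 9.87 in DNCB+HY209, 10.71, 9.25 and 10.83 in DNCB and 10.99 and 11.62 in sham, in the order of array numbers. The Gapdh signal at the 3' end over that at the 5' end, a measure of RNA quality, ran from 2.31 to 3.24 in DNCB+HY209, from 2.10 to 7.35 in DNCB and from 2.81 to 4.46 in sham. All 7 basal keratinocyte markers looked for passed the filter on dim probe sets, with list means of 9.27 to 10.38 in DNCB+HY209, 9.80 to 10.40 in DNCB and 9.92 to 10.58 in sham.

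Proximal promoter sequence is shown for the members with the lowest p-values in DNCB against sham, Sptlc2 and Degs1, and for Degs2, the paralog of Degs1. The windows are the 250 bases upstream of the annotated start, from RefSeq on GRCm38.p6, printed 5' to 3' on the gene's own strand. They lie at chr12:87388356-87388605 for Sptlc2, chr1:182282196-182282445 for Degs1 and chr12:108702307-108702556 for Degs2, all on the minus strand, and the Degs1 window falls within the span of the gene in the RefSeq gene table. Capitals mark each match to the motifs searched on both strands, which were the GC box GGGCGG, the CCAAT box, the TATA element TATAAA, the AP-1 element TGANTCA, the grainyhead element AACNNGTT and the sterol regulatory element TCACNCCAC.
Sptlc2: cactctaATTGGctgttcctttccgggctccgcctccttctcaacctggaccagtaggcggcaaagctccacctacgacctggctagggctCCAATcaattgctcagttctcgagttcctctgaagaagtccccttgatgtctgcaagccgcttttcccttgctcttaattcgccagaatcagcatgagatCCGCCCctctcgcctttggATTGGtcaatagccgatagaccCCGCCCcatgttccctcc
Degs1: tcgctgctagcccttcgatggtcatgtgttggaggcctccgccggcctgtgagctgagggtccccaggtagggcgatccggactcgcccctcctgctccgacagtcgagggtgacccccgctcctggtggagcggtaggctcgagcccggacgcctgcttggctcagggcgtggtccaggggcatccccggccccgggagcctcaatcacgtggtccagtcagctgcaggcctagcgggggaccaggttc
Degs2: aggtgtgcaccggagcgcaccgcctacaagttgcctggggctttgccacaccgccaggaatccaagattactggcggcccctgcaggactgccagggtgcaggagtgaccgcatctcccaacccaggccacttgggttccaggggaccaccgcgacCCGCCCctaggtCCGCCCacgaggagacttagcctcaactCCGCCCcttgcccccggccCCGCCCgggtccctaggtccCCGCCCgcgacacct

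Sptlc2 held 3 CCAAT boxes and 2 GC boxes, Degs2 held 5 GC boxes, and Degs1 held none of the 6 motifs. Matches in these windows did not overlap. Of the 8 members with a promoter in the table, 6 held a GC box and 3 a CCAAT box, against 32.7% and 33.8% of all 32851 promoter windows. The other motifs had no match in any of the 8, against 12.4% of all windows for the TATA element, 6.75% for AP-1, 3.64% for grainyhead and 1.05% for the sterol element. The windows of Degs1 and Degs2 were rich in G and C, at 69.6% and 69.2%, against 55.2% for Sptlc2 and a median of 52.4% over all windows. Over the 8 members the share ran from 53.2% (Abca12) to 80.4% (Ugcg), so every one lay above that median. GC boxes were not counted in other windows of like G and C share, so their number cannot be called particular to the members. A match describes letters only, and nothing about binding was measured.

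Signal levels passed a filter, being above the array's median on at least 2 of 8 arrays, for 19 of the 23 probe sets, and every gene kept at least 1. The other 4 probe sets, 1 of Ugcg, 1 of Sptlc1 and 2 of Smpd3, lay below the median on every array, with log2 signals of 2.65 to 4.08. Just inside the filter were Sptlc1 1422691_at, above the median on 2 arrays, and Degs2 1424549_at and Smpd3 1438665_at, each above it on 3. For Sptlc1 1422691_at these were sham array 2 and DNCB array 1. For Degs2 they were DNCB arrays 1 and 2 and DNCB+HY209 array 3, with no sham array among them. For Smpd3 they were sham array 1, DNCB array 2 and DNCB+HY209 array 3. All 3 probe sets enter the member counts and medians below. Differences between groups were tested with limma over all 24675 probe sets kept, with Benjamini-Hochberg adjustment and a threshold of 0.05.

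**Figure D1:**
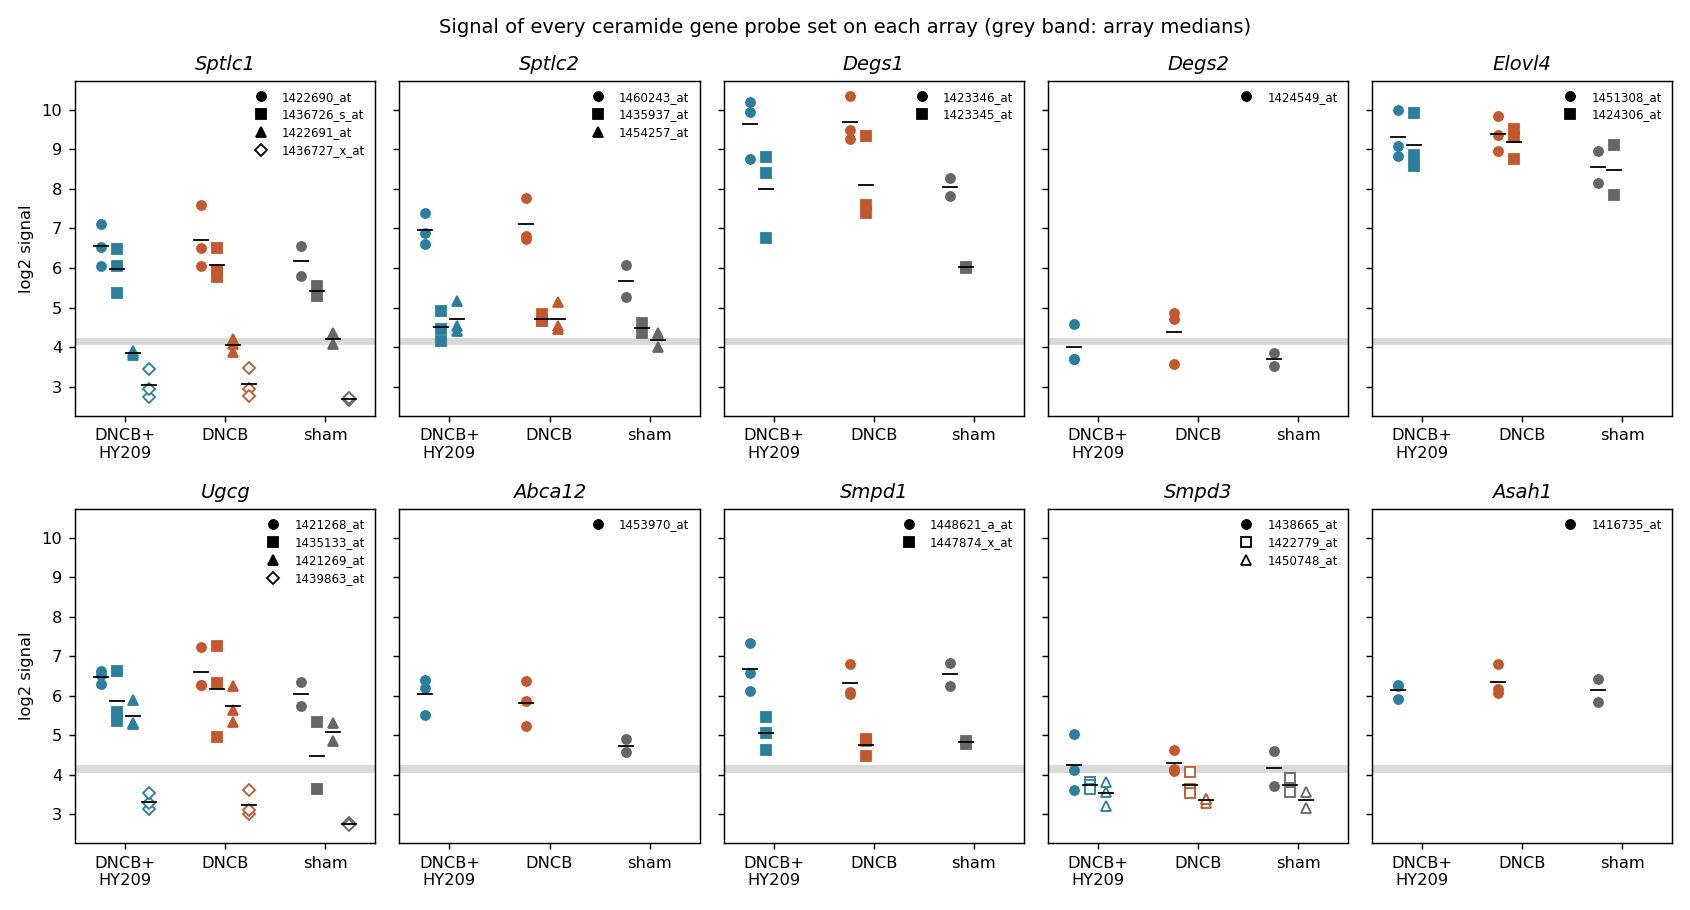
Log2 signal (vertical axis) of every probe set of the 10 genes in each group (horizontal axis), 1 point per array, with group means as black bars. Open symbols are probe sets below the filter, and the grey band spans the array medians. Both Degs1 probe sets and Sptlc2 1460243_at were among those higher on every DNCB+HY209 and DNCB array than on either sham array. The probe sets of Smpd1, Smpd3 and Asah1 overlapped between DNCB and sham, and so did that of Degs2 and some of Elovl4, Ugcg and Sptlc1.

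The first comparison asked what DNCB did to these genes. Sptlc2, Degs1 and Abca12 were the members with the largest differences from sham relative to their error, and no member passed the threshold. Limma called 0 of 19 member probe sets, with adjusted p from 0.152 to 0.894, and 5 had an unadjusted p under 0.05, all of them higher in DNCB (both of Degs1 and 1 each of Sptlc2, Abca12 and Ugcg). Over all probe sets 236 were called, or 0.956% (0.766% higher and 0.19% lower), and 15.3% had an unadjusted p under 0.05, 10.7% as higher and 4.54% as lower. The median log2 difference was 0.65 over the 19 member probe sets and 0.11 over all probe sets. The arrays of the groups did not overlap for 9 of the 19, all higher in DNCB, where 21% of all probe sets were higher without overlap and 12.6% lower.

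Serine palmitoyltransferase opens the pathway by joining serine to palmitoyl-CoA, and Sptlc1 and Sptlc2 encode a pair of its subunits. Sptlc2 1460243_at, one of the probe sets of the gene with CCAAT and GC boxes in the window above, read 6.82, 7.78 and 6.73 on the DNCB arrays, against 6.07 and 5.28 on the sham arrays. Every DNCB array lay above both sham arrays. The means were 7.11 ± 0.58 in DNCB (SD, n = 3) and 5.67 ± 0.56 in sham (SD, n = 2), a log2 difference of 1.44 (SE 0.40, limma adjusted p = 0.152). The other Sptlc2 probe sets, 1454257_at and 1435937_at, lay close to the array medians of 4.07 to 4.22 and differed by 0.53 and 0.25, so the probe sets shared a sign and not a size.

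Sptlc1 showed less. Its probe set 1422690_at read 6.52, 7.59 and 6.05 on the DNCB arrays, against 6.55 and 5.80 on the sham arrays, and the groups overlapped. The log2 difference was 0.54 (SE 0.48, limma adjusted p = 0.567). Probe set 1436726_s_at, whose suffix marks a possible match to more than one transcript, differed by 0.65 without overlap, and the dim 1422691_at by -0.16.

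Degs1 encodes the desaturase that turns dihydroceramide into ceramide, the last step of the route that starts with serine. Its probe set 1423346_at read 9.26, 10.34 and 9.49 on the DNCB arrays, against 7.83 and 8.28 on the sham arrays. The second, 1423345_at, read 7.61, 9.34 and 7.38 in DNCB, against 6.01 and 6.04 in sham. Both separated the groups fully, and DNCB array 2 was the highest of all 8 arrays on each.

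The log2 difference of Degs1 was 1.64 (SE 0.46, limma adjusted p = 0.156) by 1423346_at, a 3.12-fold higher signal in DNCB, and 2.08 (SE 0.68, adjusted p = 0.213) by 1423345_at, or 4.24-fold. The 95% intervals, 0.61 to 2.67 and 0.56 to 3.61, lay above 0 before adjustment. Its paralog Degs2 makes the hydroxylated phytoceramides of epidermis. Degs2 had a single dim probe set that read 4.71, 4.85 and 3.57 in DNCB, against 3.52 and 3.86 in sham. The groups overlapped, with a log2 difference of 0.69 (SE 0.41, limma adjusted p = 0.423). The filter kept this probe set only through DNCB-treated arrays, so its difference from sham is no evidence of a change.

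Elovl4 builds the very long acyl chains of epidermal ceramides, and mutant mice that lack it die from water loss. Probe set 1451308_at read 9.37, 9.84 and 8.96 in DNCB, against 8.15 and 8.95 in sham, so the groups separated by a margin of less than the spread within either. The log2 difference was 0.84 (SE 0.41, limma adjusted p = 0.357). Its second probe set 1424306_at differed by 0.71 and overlapped. The sham arrays decided both values, which were 0.44 and 0.071 without sham array 1 and 1.24 and 1.35 without sham array 2.

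Ugcg adds glucose to ceramide, and Abca12 loads glucosylceramide into lamellar granules. Ugcg 1435133_at read 6.32, 7.27 and 4.96 in DNCB, against 5.34 and 3.63 in sham, with a log2 difference of 1.70 (SE 0.70, limma adjusted p = 0.307). The sham arrays alone differed by more than that difference, and the groups overlapped. The other kept probe sets, 1421268_at and 1421269_at, differed by 0.55 and 0.66. Abca12, whose loss in humans causes harlequin ichthyosis, read 5.23, 6.37 and 5.87 in DNCB, against 4.90 and 4.57 in sham. No array overlapped, and the log2 difference was 1.09 (SE 0.37, limma adjusted p = 0.227), a 2.12-fold higher signal in DNCB.

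The genes of hydrolysis had intervals that spanned 0, as did all but 5 of the 19 member probe sets. Smpd1, the acid sphingomyelinase that releases ceramide from sphingomyelin in the barrier, differed by -0.23 (95% interval -1.12 to 0.65) and by -0.07 (-0.67 to 0.52) in its probe sets. Smpd3, a neutral sphingomyelinase, was near the array medians and differed by 0.12 (-0.81 to 1.06). Asah1, the acid ceramidase that cuts ceramide to sphingosine and a fatty acid, read 6.17, 6.80 and 6.07 in DNCB, against 6.43 and 5.84 in sham, a difference of 0.21 (-0.45 to 0.87). The groups overlapped for every one of these probe sets, and the width of the intervals means that the arrays do not show these genes to be unaltered.

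**Figure D2:**
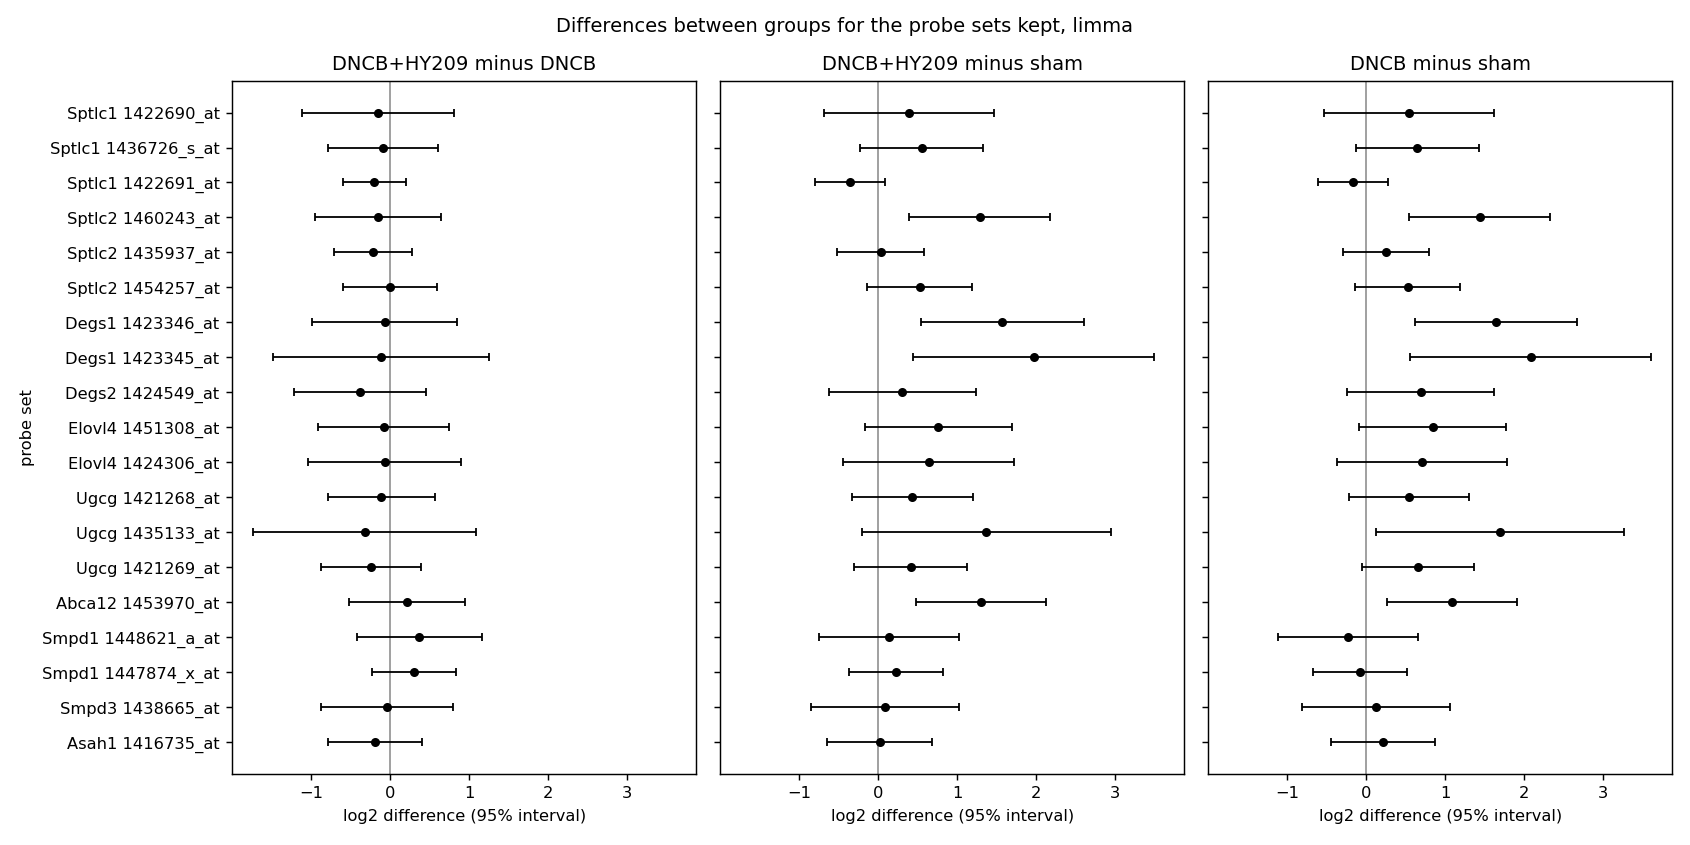
Log2 difference (horizontal axis) with its 95% interval from limma, before adjustment, for the 19 member probe sets kept (vertical axis), in DNCB+HY209 against DNCB, DNCB+HY209 against sham and DNCB against sham. All 19 intervals span 0 in the first panel, and those above 0 are 4 in the second and 5 in the third.

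The second comparison asked what HY209 gel did to these genes in DNCB-treated skin. All 19 member probe sets overlapped between the groups, where 2.83% of all probe sets were higher without overlap and 2.04% lower, the differences ran from -0.38 to 0.37, and none separated HY209 from vehicle. Limma called 0 of 19 and 0 of 24675 probe sets overall (0%), and 0 members had an unadjusted p under 0.05, where 1.24% of all probe sets did (0.3% higher and 0.944% lower). The lowest unadjusted p among members was 0.229, and 3 of the 19 differences were above 0, where 56.1% of all probe sets were. Their median was -0.11, against 0.03 over all probe sets, and it was 0.19 without DNCB array 2.

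Degs1 1423346_at read 8.76, 9.93 and 10.19 on the DNCB+HY209 arrays, against 9.26, 10.34 and 9.49 on the DNCB arrays, a log2 difference of -0.07 (95% interval -0.99 to 0.85). DNCB+HY209 array 1 was lowest in its group and the other arrays lay within the DNCB range. Without DNCB array 2 the same difference was 0.25, and without DNCB+HY209 array 1 it was 0.36. Sptlc2 1460243_at read 6.61, 6.88 and 7.40 in DNCB+HY209, against 6.82, 7.78 and 6.73 in DNCB, a difference of -0.15 (-0.95 to 0.65). Its sign turned too without DNCB array 2, to 0.19.

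Abca12 read 5.51, 6.39 and 6.21 in DNCB+HY209, against 5.23, 6.37 and 5.87 in DNCB, a difference of 0.21 (95% interval -0.52 to 0.95). Elovl4 1451308_at read 9.08, 8.85 and 10.01 in DNCB+HY209, against 9.37, 9.84 and 8.96 in DNCB, a difference of -0.08 (-0.91 to 0.75). Neither gene separated the groups. Degs2 had the lowest difference of the 19, -0.38 (-1.21 to 0.45), and Smpd1 1448621_a_at the highest, 0.37 (-0.42 to 1.16). Smpd1 read 6.58, 6.13 and 7.34 in DNCB+HY209, against 6.09, 6.81 and 6.04 in DNCB, and DNCB+HY209 array 3 stood above the rest.

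For 13 of the 19 probe sets the whole 95% interval of HY209 against DNCB lay within 1 log2 unit of 0, so a difference of more than 2-fold lay outside it. Among these were Degs1 1423346_at, Sptlc2 1460243_at, Elovl4 1451308_at and the probe sets of Abca12 and Asah1. The 6 others, 1 each of Elovl4, Ugcg, Sptlc1, Smpd1, Degs1 and Degs2, reached past that bound on one side or both.

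The third comparison asked how HY209-treated DNCB skin stood against sham, and it shares the sham arrays with the first. Limma called 0 of 19 member probe sets (adjusted p from 0.166 to 0.973), against 0.267% of all probe sets (0.207% higher and 0.0608% lower), and 4 had an unadjusted p under 0.05, all higher, where 12.9% of all probe sets were higher and 5.66% lower at that level. The difference was above 0 for 18 of the 19, and for 61.8% of all probe sets. The 4 were both probe sets of Degs1, with log2 differences of 1.57 (SE 0.46, limma adjusted p = 0.170) and 1.97 (SE 0.68, adjusted p = 0.210), Abca12 with 1.30 (SE 0.37, adjusted p = 0.166) and Sptlc2 1460243_at with 1.29 (SE 0.40, adjusted p = 0.185). Arrays did not overlap for 6 probe sets that were higher, where 26.7% of all probe sets were. They did not overlap for 1 that was lower either, where 14.2% of all probe sets were. That was the dim Sptlc1 1422691_at, which passed the filter through no DNCB+HY209 array. The median was 0.43 over members and 0.15 over all probe sets. Quantile normalization moved the median of all probe sets to 0.00 here and to -0.01 in DNCB against sham, and the member medians to 0.36 and 0.51. Without DNCB+HY209 array 1, Degs1 1423346_at passed the threshold with a difference of 2.01 (limma adjusted p = 0.0440), the only member probe set called under any of the 19 alternatives run.

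Side by side, Degs1 1423346_at averaged 9.63 ± 0.76 in DNCB+HY209 (SD, n = 3), 9.70 ± 0.57 in DNCB (n = 3) and 8.06 ± 0.32 in sham (n = 2). Abca12 averaged 6.04 ± 0.46 in DNCB+HY209, 5.82 ± 0.57 in DNCB and 4.74 ± 0.23 in sham. Asah1 averaged 6.15 ± 0.20 in DNCB+HY209, 6.35 ± 0.40 in DNCB and 6.13 ± 0.41 in sham, and its groups did not differ beyond their spread.

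The members shared a pattern over single arrays that did not follow the groups alone. Of the 19 probe sets, 10 were highest on DNCB array 2 and 7 on DNCB+HY209 array 3, while 9 were lowest on sham array 2 and 5 on sham array 1. The share of all probe sets with extremes on these arrays was not counted, so the pattern cannot be called particular to the members. The SD over all probe sets was largest on DNCB array 2 (2.07) and DNCB+HY209 array 3 (2.03), and smallest on sham array 2 (1.78). DNCB array 2, DNCB+HY209 array 3 and DNCB+HY209 array 2 had the lowest spike-in signals, in that order, and sham array 2 the highest. The order of the 8 arrays by Sptlc2 1460243_at was the exact reverse of their order by spike-in signal, and the 3 arrays highest in Degs1 were the 3 lowest in spike-in signal.

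With spike-in level in the model, the median difference of the 19 probe sets in DNCB against sham was 0.07, and without the arrays of highest and lowest spike-in level (sham array 2 and DNCB array 2) it was 0.18, in place of 0.65. The median over all probe sets was 0.007 and -0.003 in those fits, in place of 0.11. The difference of Degs1 1423346_at was 0.91 and 1.54 in those fits, that of Sptlc2 1460243_at 0.72 and 0.71, and that of Abca12 0.48 and 0.65. Ugcg 1435133_at had 0.46 and 0.30. In DNCB+HY209 against sham the member median with the covariate was -0.05, in place of 0.43, and that of all probe sets was 0.03, in place of 0.15. Which of spike-in level and treatment the members followed was not tested.

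**Figure D3:**
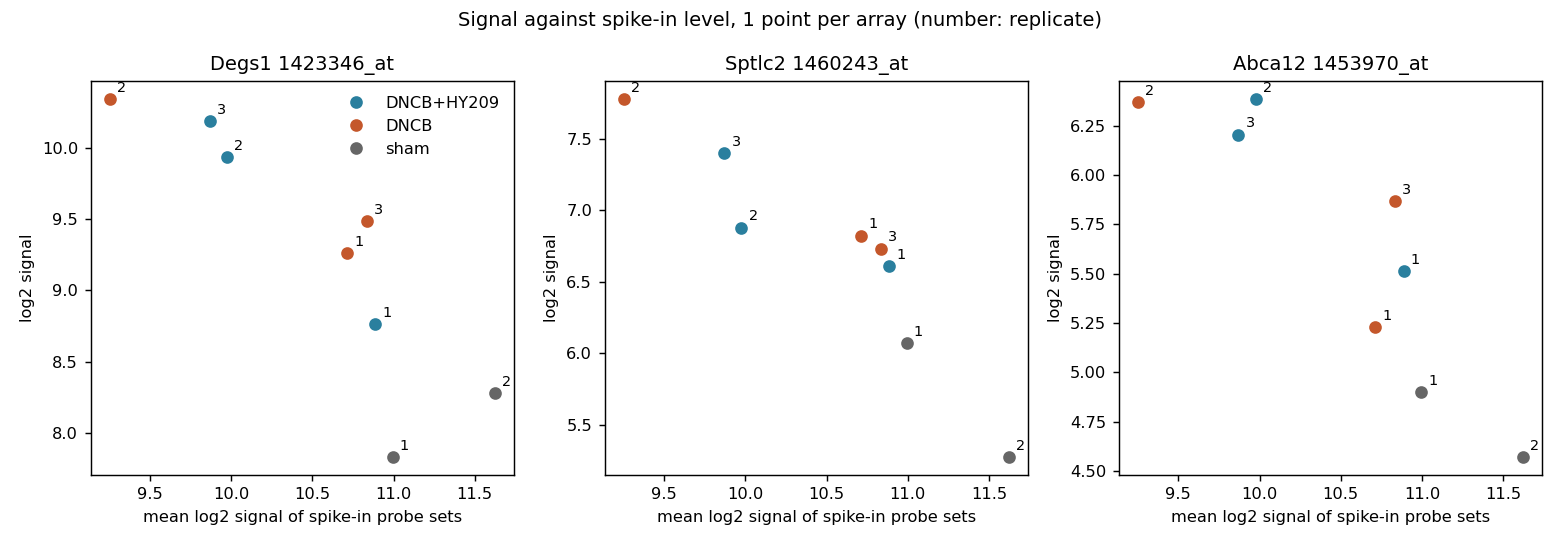
Log2 signal of Degs1, Sptlc2 and Abca12 (vertical axes) against the mean log2 signal of 7 spike-in probe sets (horizontal axes), 1 point per array, coloured by group and numbered by replicate. Signals are high where the spike-in level is low, and the sham arrays lie at the low right of each panel, with spike-in levels of 10.99 and 11.62.

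Markers of the cell types of skin are given beside these differences. The mean log2 signal of 7 activated keratinocyte markers (7 of 7 past the filter) was 9.83 to 11.70 in DNCB+HY209, 10.96 to 12.30 in DNCB and 5.57 to 6.11 in sham, and limma called 6 of the 7 in DNCB against sham. The 10 markers of differentiating keratinocytes, the cells in which barrier lipids are made, had 0 called. Their means were 8.20 to 10.50 in DNCB+HY209, 8.45 to 10.28 in DNCB and 6.39 to 8.41 in sham. The ranges overlapped between DNCB+HY209 and sham, but not between DNCB and sham, where DNCB was higher. The sham arrays themselves read 8.41 and 6.39 in that list. The 12 hair follicle markers had means of 6.33 to 8.75 in DNCB+HY209, 5.37 to 7.79 in DNCB and 7.02 to 9.72 in sham, with 0 called in any comparison. The 6 sebaceous gland markers with a probe set, of which 5 passed the filter, had means of 5.61 to 6.32 in DNCB+HY209, 5.50 to 6.05 in DNCB and 5.86 to 6.49 in sham, again with 0 called. Of 6 neutrophil markers with a probe set, 5 passed the filter, with means of 5.23 to 5.96 in DNCB+HY209, 5.74 to 6.38 in DNCB and 4.05 to 4.11 in sham. The 2 called against sham in either DNCB group were S100a8 and S100a9, which the activated keratinocyte list also holds. Endothelial markers (5 of 5 past the filter) had means of 4.87 to 5.44 in DNCB+HY209, 5.50 to 6.29 in DNCB and 4.40 to 4.68 in sham, ranges that did not overlap, with 1 called in DNCB against sham. Adipocyte markers (4 of 6 past the filter) had means of 4.37 to 5.20 in DNCB+HY209, 4.50 to 5.76 in DNCB and 5.94 to 6.63 in sham, and fibroblast markers (6 of 6) 8.37 to 8.58 in DNCB+HY209, 8.85 to 10.01 in DNCB and 8.86 to 9.69 in sham, with 0 called in either list. The ranges of the macrophage, T cell and skeletal muscle lists overlapped between DNCB and sham. Limma called 1 skeletal muscle marker in each comparison against sham, and 1 basal keratinocyte marker in DNCB against sham. The part of these cell types in the differences above was not tested.

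Other genes of ceramide metabolism gave a setting for the 10. A list of 50 symbols had 45 with a probe set and 42 past the filter, each taken by its brightest kept probe set. In DNCB against sham limma called 0 of 42, with 7 at an unadjusted p under 0.05, all higher, beside 0.956% of all probe sets called and 10.7% higher and 4.54% lower at that p. The median difference was 0.21, with 29 above 0 and 13 below, where 59.3% of all probe sets were above 0. Arrays did not overlap for 14 genes higher in DNCB and 3 lower, where 21% and 12.6% of all probe sets did so.

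The 3 with the largest moderated t were Elovl7, Cyp4f39 and Cers3. Elovl7, an elongase of long acyl chains measured by a probe set whose suffix marks possible cross-hybridisation, read 8.91, 9.53 and 9.14 in DNCB, against 7.40 and 7.99 in sham, a log2 difference of 1.50 (SE 0.37, limma adjusted p = 0.110). Cyp4f39, the mouse counterpart of the hydroxylase that prepares acyl chains for acylceramide, read 7.30, 8.48 and 7.35 in DNCB, against 5.85 and 6.15 in sham, a difference of 1.71 (SE 0.45, limma adjusted p = 0.139). Cers3, the ceramide synthase for the longest chains, read 6.73, 8.06 and 6.11 in DNCB, against 5.25 and 3.99 in sham, a difference of 2.35 (SE 0.68, limma adjusted p = 0.169). All 3 separated the groups, and none passed. With spike-in level in the model the differences were 1.08 for Elovl7, 0.99 for Cyp4f39 and 0.98 for Cers3.

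The remaining 4 with an unadjusted p under 0.05, named after their values were seen, were Sdr9c7 (1.51), Sgms1 (1.01), Cerk (0.95) and Cers2 (0.75). Sdr9c7 oxidises the linoleate of acylceramide, Sgms1 makes sphingomyelin, Cerk phosphorylates ceramide and Cers2 joins very long chains in many tissues. With spike-in level in the model they had 0.77 for Sdr9c7, 0.19 for Sgms1, 0.39 for Cerk and 0.42 for Cers2, and Cerk had 0.14 without sham array 2 and DNCB array 2. Against these, Acer2, an alkaline ceramidase of the Golgi also named after its values were seen, had the lowest difference, -1.69 (SE 0.91, limma adjusted p = 0.388). It read 6.26, 3.61 and 6.49 in DNCB, against 6.69 and 7.59 in sham, and of the DNCB arrays number 2 was far below the other two.

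HY209 against DNCB gave 0 of 42 called, 0 with an unadjusted p under 0.05, and a median of 0.05. The largest moderated t values were those of Cers2 (-0.32, SE 0.21), Tecr (0.33, SE 0.26), a reductase of the elongation cycle, and Elovl3 (0.50, SE 0.40), an elongase of sebaceous glands and hair follicles. Each had an adjusted p of 1.00 by limma. In DNCB+HY209 against sham limma again called 0 of 42, with 6 higher and 1 lower (Acer2, -2.20) at an unadjusted p under 0.05, where 12.9% of all probe sets were higher and 5.66% lower. With spike-in level in the model Acer2 had -0.27. Elovl7 (1.56, SE 0.37, limma adjusted p = 0.126), Cyp4f39 (1.78, SE 0.45, adjusted p = 0.144) and Cers3 (1.99, SE 0.68, adjusted p = 0.208) had the largest moderated t among the genes higher there. Without DNCB+HY209 array 1, Elovl7 passed in both comparisons against sham, with limma adjusted p of 0.0331 for DNCB+HY209 and 0.0462 for DNCB.

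**Figure D4:**
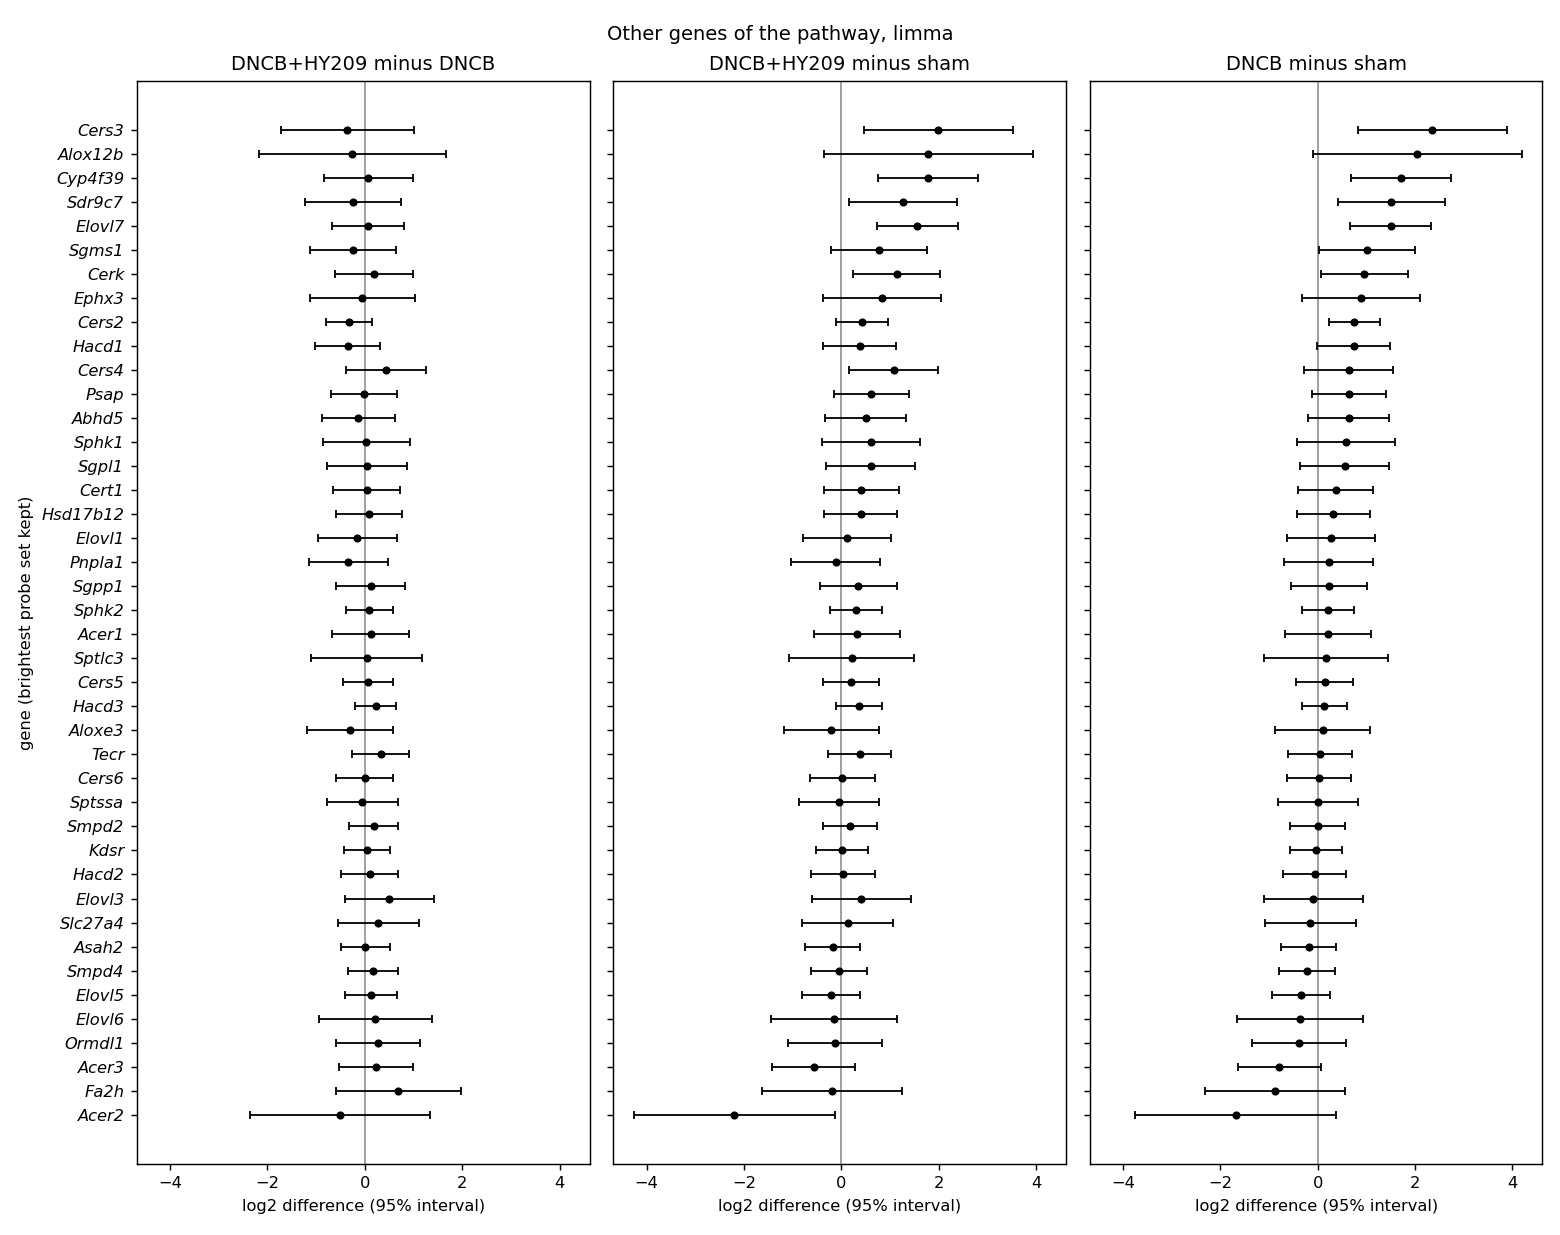
Log2 difference (horizontal axis) with its 95% interval from limma, before adjustment, for the 42 other pathway genes kept (vertical axis, ordered by DNCB against sham), in DNCB+HY209 against DNCB, DNCB+HY209 against sham and DNCB against sham. Cers3 is highest and Acer2 lowest in the last panel, at 2.35 and -1.69.

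Genes with the pattern most like that of the leading members were sought among 12410 genes over the 8 arrays, as a description. The highest Pearson r with Degs1 1423346_at was 0.996 for Ampd3, an AMP deaminase, then 0.993 for Sema4d and 0.992 for the metalloprotease gene Adam8. For Sptlc2 1460243_at it was 0.995 for Mea1, 0.990 for Cyth2 and 0.989 for the proteasome subunit Psmb2, and for Abca12 0.991 for Tmem102, 0.986 for the serine synthesis gene Psat1 and 0.985 for Rgs12. The number of genes with r over 0.9 was 691 for Degs1, 1100 for Sptlc2 and 590 for Abca12, so such values were common in these data. The points share groups and the spike-in level.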

How the data were processed

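The authors deposited 1 table of log2 signals per probe set, and the log2 scale was read from its values. Per the labels' protocols, RNA was amplified from the 3' end and biotin-labelled. Affymetrix Expression Console and MAS5 are named, per the submitters' processing notes. Any normalization between arrays was not given in the sources used here. The array type in the labels is 430A 2.0, but with 45101 probe sets the table matches the larger design of the same generation, whose annotation was used. That annotation gave 1 symbol for 34945 probe sets, several for 932 and none listed for 9160, and 64 were controls.

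The deposited log2 values were used without further scaling. Probe sets above their array's median on at least 2 of 8 arrays were fitted with limma 3.58.1 in R 4.3.3 (lmFit, eBayes with an intensity trend) in 1 fit of all groups, two-sided, with Benjamini-Hochberg adjustment over 24675 probe sets. The fit was tested on simulated data. The number of arrays limits the precision. A gene with several probe sets was taken, where 1 was needed, by the brightest kept.

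Members and lists were chosen with earlier results of these data known. All 10 members are named. Pathway genes are named when called, and otherwise as the 3 of largest absolute moderated t per comparison, and the 3 genes most like each of the 3 leading members by Pearson r. In the comparisons against sham, Sdr9c7, Sgms1, Cerk, Cers2 and Acer2 were named in addition, after their values were seen. The 19 alternatives changed the normalization, centring, filter, probe sets per gene, variance model, samples, replicate block, spike-in and Gapdh covariates, and the arrays left out. Promoters came from RefSeq tables (GRCm38.p6), matched by symbol for 8 of 10 members.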

Additional observations from a re-analysis of the deposited data

How the results depend on the processing

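No member probe set was called in any comparison under any alternative, except Degs1 1423346_at in DNCB+HY209 against sham without DNCB+HY209 array 1. Leaving out 1 array at a time gave 0 to 1 called there, and 0 to 1 pathway genes called in each comparison against sham, the 1 being Elovl7. In DNCB+HY209 against DNCB, 0 probe sets of any kind were called by limma under all 19 alternatives, beside 307 at an unadjusted p under 0.05 in the reported fit. Calls over all probe sets against sham were less stable. For DNCB, 236 in the reported fit became 366 after quantile normalization, 142 with arrays centred on their medians, 140 with the filter on all arrays, 20 with the spike-in covariate, 519 with the Gapdh covariate, 6 without DNCB array 2 and sham array 2, and 14 to 432 with 1 array left out (14 without either sham array, 432 without DNCB+HY209 array 1). For DNCB+HY209, 66 became 141, 32, 29, 9, 62, 9 and 6 to 354 under the same settings, and 24 with only the groups compared. The cause was not tested.

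Between arrays of the same number, the correlation of deviations from the group means ran from -0.620 to 0.236. With so few arrays per group the deviations within a group are tied to each other, so these values cannot decide whether arrays were paired. With the replicate number as a block, 20 and 8 probe sets were called in DNCB and DNCB+HY209 against sham, and the difference of Degs1 1423346_at in DNCB against sham was 1.56.

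Signs of some differences turned, none of them called. The largest of these in the reported fit was 0.55, for Sptlc1 1436726_s_at in DNCB+HY209 against sham. After quantile normalization, the sign in DNCB against sham turned for Asah1 1416735_at (-0.022). With the replicate block, the sign in DNCB against sham turned for Smpd3 1438665_at (-0.031). With the spike-in covariate, the sign in DNCB against sham turned for Asah1 1416735_at (-0.27), Ugcg 1421268_at (-0.049), Sptlc1 1422690_at (-0.39), Sptlc1 1422691_at (0.016), Sptlc2 1435937_at (-0.027) and Smpd3 1438665_at (-0.31). Without DNCB array 2 and sham array 2, the sign in DNCB against sham turned for Asah1 1416735_at (-0.31), Ugcg 1421268_at (-0.069), Sptlc1 1422690_at (-0.27), Sptlc1 1422691_at (0.069) and Smpd3 1438665_at (-0.49). DNCB against sham gave ranges across 0, with 1 array left out at a time, for Asah1 1416735_at (-0.079 to 0.50), Smpd3 1438665_at (-0.32 to 0.57), Smpd1 1447874_x_at (-0.16 to 0.060) and Smpd1 1448621_a_at (-0.52 to 0.057). After quantile normalization, the sign in DNCB+HY209 against DNCB turned for Sptlc2 1454257_at (0.0041). With arrays centred on their medians, the sign in DNCB+HY209 against DNCB turned for Sptlc2 1454257_at (0.013). Without DNCB array 2 and sham array 2, the sign in DNCB+HY209 against DNCB turned for Asah1 1416735_at (0.037), Ugcg 1421268_at (0.21), Ugcg 1421269_at (0.0067), Sptlc1 1422690_at (0.29), Degs1 1423345_at (0.50), Degs1 1423346_at (0.25), Ugcg 1435133_at (0.22), Sptlc1 1436726_s_at (0.12), Smpd3 1438665_at (0.14), Elovl4 1451308_at (0.15), Sptlc2 1454257_at (0.20) and Sptlc2 1460243_at (0.19). DNCB+HY209 against DNCB gave ranges across 0, with 1 array left out at a time, for Asah1 1416735_at (-0.33 to 0.037), Ugcg 1421268_at (-0.27 to 0.21), Ugcg 1421269_at (-0.45 to 0.0067), Sptlc1 1422690_at (-0.48 to 0.29), Degs1 1423345_at (-0.53 to 0.50), Degs1 1423346_at (-0.35 to 0.36), Elovl4 1424306_at (-0.47 to 0.20), Ugcg 1435133_at (-0.93 to 0.22), Sptlc1 1436726_s_at (-0.35 to 0.20), Smpd3 1438665_at (-0.42 to 0.29), Elovl4 1451308_at (-0.43 to 0.15), Abca12 1453970_at (-0.084 to 0.49), Sptlc2 1454257_at (-0.24 to 0.20) and Sptlc2 1460243_at (-0.37 to 0.19). After quantile normalization, the sign in DNCB+HY209 against sham turned for Asah1 1416735_at (-0.24) and Smpd1 1448621_a_at (-0.16). With the replicate block, the sign in DNCB+HY209 against sham turned for Sptlc2 1435937_at (-0.056) and Smpd3 1438665_at (-0.067). With the spike-in covariate, the sign in DNCB+HY209 against sham turned for Asah1 1416735_at (-0.47), Ugcg 1421268_at (-0.17), Ugcg 1421269_at (-0.11), Sptlc1 1422690_at (-0.56), Degs2 1424549_at (-0.14), Sptlc2 1435937_at (-0.25), Sptlc1 1436726_s_at (-0.052), Smpd3 1438665_at (-0.36) and Smpd1 1448621_a_at (-0.36). With the Gapdh covariate, the sign in DNCB+HY209 against sham turned for Asah1 1416735_at (-0.066) and Sptlc2 1435937_at (-0.011). Without DNCB array 2 and sham array 2, the sign in DNCB+HY209 against sham turned for Asah1 1416735_at (-0.27), Sptlc2 1435937_at (-0.093), Smpd3 1438665_at (-0.35) and Smpd1 1448621_a_at (-0.15). DNCB+HY209 against sham gave ranges across 0, with 1 array left out at a time, for Asah1 1416735_at (-0.27 to 0.31), Sptlc2 1435937_at (-0.17 to 0.21), Smpd3 1438665_at (-0.35 to 0.53) and Smpd1 1448621_a_at (-0.19 to 0.43). No difference with a turned sign exceeded 0.56 in size on the log2 scale, and the number of arrays limits what such differences can show.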
